A study of Mus musculus with 9 samples.

Results

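The Notch pathway was followed through 10 mouse genes in the tumor microenvironment (TME) of glioblastoma: the ligands Dll4, Jag1 and Jag2, the receptors Notch1, Notch3 and Notch4, the DNA-binding factor Rbpj, and the target genes Hes1, Hey1 and Heyl. They were taken by symbol from the count table of every sample. All 10 were listed in every table, among 12580 symbols that every table held and 33274 that at least 1 table held. The cells came from the brains of athymic nude mice. In 7 samples (the tumor models P3, P8 and P13 and the models T16, T101, T192 and T233), glioblastoma organoids of patients had been implanted into the right frontal cortex of female mice and had grown to patient-derived orthotopic xenografts (PDOXs), with no drug given or vehicle only. P3-TMZ was a P3 PDOX after temozolomide (TMZ), a DNA-alkylating drug given by mouth, and Nu-NB was a nude mouse brain without a tumor. Nude mice lack mature T cells, and the ages of the mice were not given in the sources used here. Each PDOX is a different tumor model, T192 and T233 coming from the same patient, and nothing shows more than 1 library per model, so p-values measure the spread between these 7 models. Mouse-derived cells were separated from tumor cells and profiled by Drop-seq, which counts unique molecular identifiers (UMIs) at the 3′ ends of transcripts in single cells.

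Notch signals pass between touching cells. A Delta-like or Jagged ligand on a cell binds a Notch receptor on its neighbor, proteases cut the receptor, and the freed intracellular domain joins RBPJ on DNA and switches on genes of the Hes and Hey families, which encode repressors of transcription. In blood vessels, DLL4 on sprouting endothelial tip cells holds back its neighbors through NOTCH1, NOTCH4 is known from endothelium, and NOTCH3 is known from pericytes and vascular smooth muscle cells, the mural cells of the vessel wall. In the glia of the brain, NOTCH1 and HES genes are known from astrocytes and from neural progenitors.

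The tables held 1294068 to 8410580 UMIs per sample, and cells had a median of 521 to 1303 UMIs. Of 15391 cells that passed the filters, 14622 were clustered, and at most 5 cell barcodes were shared by any pair of libraries. Clusters were named from 10 fixed markers per class, of which 6 were listed in every table for oligodendrocyte progenitors, as endothelial-like (2057 cells in the untreated PDOXs, 115 to 557 per sample), mural-like (656 cells, 28 to 267), astrocyte-like (2067 cells in 6 PDOXs), oligodendrocyte progenitor (OPC)-like (992 cells in 6 PDOXs) and myeloid-like (3216 cells, 167 to 1022). P3 had too few astrocyte-like and OPC-like cells to be used there. UMIs were summed over the cells of a class in each sample and are given as CPM, the UMIs of a gene scaled to a common total per sum. Endothelial markers summed to between 12605 and 24315 CPM in the endothelial-like sums, where mural markers reached at most 1976 CPM and myeloid markers at most 2291 CPM. The mural-like sums were less clean. In P8 and T101 mural markers summed to 29487 and 22436 CPM beside 689 and 419 CPM of myeloid markers. In T16 and P13 mural markers summed to 15268.5 and 14338 CPM beside 11343.5 and 9575 CPM of myeloid markers. In T192, T233 and P3 myeloid markers exceeded mural markers, at 25209, 33321 and 33660 CPM beside 8013, 2768 and 7256 CPM. The fits were therefore run also without these 3 sums, a choice made after seeing the data. Of the 15 member calls that involve mural-like cells, 13 were kept there, Hes1 against endothelial-like and Notch1 against astrocyte-like cells being lost. These calls take Hes1, Jag1 and Notch1 from the fit with a filter on low counts and the other members from the fit without it. Pooled levels and shares of cells include the 3 sums unless stated. The part of the myeloid transcripts in the mural-like sums, those of T16 and P13 included, was otherwise not tested. The mural-like sums also differ in depth, 3 UMIs standing for 3.08 CPM in P13 and for 26.4 to 251 CPM in the other 6, so that a count of 0 in a shallow sum cannot be placed below a low level elsewhere. Myeloid markers reached 7442 CPM in the astrocyte-like sum of T192, beside 36344 CPM of astrocyte markers. In the OPC-like sum of P13 they summed to 2684 CPM beside 2534 CPM of OPC markers, and both member calls between OPC-like and astrocyte-like cells were kept without P13.

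The ligand genes lie in the mouse genome (GRCm38, RefSeq genes) with Dll4 at chr2:119325784-119335666, Jag1 at chr2:137081451-137116520 and Jag2 at chr12:112907803-112929812, and the receptor genes with Notch1 at chr2:26457902-26503822, Notch3 at chr17:32120820-32166896 and Notch4 at chr17:34564286-34588543. Rbpj lies at chr5:53555779-53657445, Hes1 at chr16:30065357-30067796, Hey1 at chr3:8663359-8667038 and Heyl at chr4:123233556-123249870. The 250 bases before a RefSeq transcript start are shown for Dll4 and Notch4, which were highest in endothelial-like cells, and for Notch3, which was highest in mural-like cells (mouse build GRCm38.p6, read 5′ to 3′ on the strand of the gene), with each match to the core of ETS factors, a family of transcription factors known from endothelial genes (GGAA or its reverse complement TTCC), in capitals. In Notch4 and Notch3 the start used lies a few bases inside the annotated gene.
Dll4, chr2:119325534-119325783, plus strand: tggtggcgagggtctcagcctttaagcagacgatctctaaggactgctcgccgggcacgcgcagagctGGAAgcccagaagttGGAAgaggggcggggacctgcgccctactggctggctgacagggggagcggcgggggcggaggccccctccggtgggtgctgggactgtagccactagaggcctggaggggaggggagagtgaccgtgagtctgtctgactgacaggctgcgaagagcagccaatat
Notch4, chr17:34564045-34564294, plus strand: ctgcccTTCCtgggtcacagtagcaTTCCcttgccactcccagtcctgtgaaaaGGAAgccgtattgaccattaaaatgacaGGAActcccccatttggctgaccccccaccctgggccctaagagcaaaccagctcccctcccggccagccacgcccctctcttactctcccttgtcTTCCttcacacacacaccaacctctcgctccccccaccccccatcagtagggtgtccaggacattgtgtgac
Notch3, chr17:32166891-32167140, minus strand: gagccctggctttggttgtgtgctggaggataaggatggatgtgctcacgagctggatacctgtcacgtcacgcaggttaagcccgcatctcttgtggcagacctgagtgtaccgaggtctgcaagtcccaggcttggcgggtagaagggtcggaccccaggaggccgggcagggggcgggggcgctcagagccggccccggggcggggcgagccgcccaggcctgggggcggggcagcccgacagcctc
The Dll4 window held 2 matches, that of Notch4 held 5 and that of Notch3 held 0. Among 32851 RefSeq promoters of the same length, 93.4% held at least 1 such match, with a median of 3. The RBPJ core (TGGGAA or TTCCCA, which includes an ETS core) was found in the windows of 1 of the 7 members listed in the promoter table, Rbpj itself, and in 21.6% of all promoters. Hes1, Hey1 and Heyl had no entry. These matches describe letters in a short window only.

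The first comparison asked in which cell class of the untreated PDOXs each gene was expressed. The sums of all 5 classes were fitted by the edgeR quasi-likelihood test with the sample as a block, and a gene was called at a false discovery rate (FDR) of at most 0.01 over all genes of the fit and a log2 fold change (log2FC) of at least 1. With the filter on low counts, 4737 genes entered and of the members only Hes1, Jag1 and Notch1. All 10 members were tested in the fit without that filter, on 12575 genes. The values of these 3 genes come from the filtered fit and those of the other 7 from the unfiltered fit unless stated. Without the filter, 7 members were called between endothelial-like and mural-like cells, where 16.9% of all genes were called. Of these, 5 were higher in endothelial-like cells (6.38% of all genes) and 2 lower (10.5%). Between endothelial-like and myeloid-like cells 7 members were called, all higher in endothelial-like cells, against 27.5% of all genes in both directions and 10.4% in that direction. Between endothelial-like and astrocyte-like cells 4 were called, all higher (29% of all genes, 14.2% higher). Mural-like cells differed from astrocyte-like cells in 3 members, 2 higher and 1 lower (20.5% of all genes, 11.1% higher and 9.38% lower), and from myeloid-like cells in 4, all higher (10.9%, 5.49% higher). Astrocyte-like cells exceeded myeloid-like cells in 5 members (32.6%, 14.2% higher), and OPC-like cells lay below astrocyte-like cells in 2 (11.5%, 7.7% lower). In the filtered fit, of the 3 tested members 1, 1, 3, 1, 2 and 3 were called in the first 6 of these comparisons taken in the order endothelial minus mural, minus astrocyte, minus myeloid, mural minus astrocyte, minus myeloid and astrocyte minus myeloid, and 0 between OPC-like and astrocyte-like cells, beside 25.4%, 38.3%, 33.6%, 31.9%, 14.3%, 40.1% and 15.3% of all genes. In cells that held the markers of their own class only, a single mural-like sum (11 cells of T16) was left, and none of the member calls that involve mural-like cells was kept. Over all genes of the filtered fit, the values of the PDOXs did not overlap between endothelial-like cells and mural-like, astrocyte-like and myeloid-like cells for 8.11%, 26.2% and 25.1%.

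The ligand Dll4 was found mainly in endothelial-like cells. Its level in endothelial-like cells was 52.5 CPM in P8, 41.0 in T101, 46.4 in T192, 24.4 in T233, 79.0 in P3, 39.5 in T16 and 79.0 in P13, from 2 to 109 UMIs (mean 51.7 ± 20.5 CPM, SD, n = 7). P3 and P13 were highest and T233 was lowest. The mural-like sums of the same PDOXs held 0 Dll4 UMIs, so that the pooled level was at least 30.2-fold higher in endothelial-like cells when 3 UMIs over all mural-like cells are taken as the floor, or at least 7.33-fold without P13, the deepest sum. Dll4 was called against mural-like cells (log2FC 7.53, SE 0.93, FDR 1.3e-10 by edgeR, a value that depends on the prior count at 0 UMIs), astrocyte-like cells (log2FC 5.09, SE 0.69, FDR 1.4e-09) and myeloid-like cells (log2FC 4.70, SE 0.50, FDR 2.1e-13). In T101 and T233, 3 UMIs in the mural-like and in the astrocyte-like sum stand for more than the endothelial-like level, so that these PDOXs do not show the order of those classes.

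Jag2, a Jagged ligand, was also found mainly in endothelial-like cells. It measured 43.7, 41.0, 13.9, 60.9, 34.6, 25.8 and 36.2 CPM in endothelial-like cells of P8, T101, T192, T233 and P3, and of T16 and P13, from 3 to 50 UMIs. T233 was highest and T192 lowest in measured value, on 5 and 3 UMIs with overlapping Poisson intervals (19.8 to 142 and 2.87 to 40.7 CPM). Mural-like cells held 1 Jag2 UMI in all 7 PDOXs together, against 93 in endothelial-like cells (pooled ratio 48.1, 95% interval for counting error 8.43 to 1921). That UMI was in P13, and without P13 the level was at least 4.78-fold higher. Only in P8, T233 and P13 was the mural-like sum deep enough to place Jag2 below the endothelial-like level of the same PDOX. Astrocyte-like cells held 0, which made the pooled level at least 20.2-fold higher in endothelial-like cells, or 10.7-fold without P13. The edgeR fit called Jag2 against mural-like (log2FC 5.03, SE 0.80, FDR 2.2e-07), astrocyte-like (log2FC 6.56, SE 0.92, FDR 3.0e-09) and myeloid-like cells (log2FC 3.33, SE 0.49, FDR 1.4e-08). In cells with own markers only, all 3 calls were lost (log2FC 3.38, 3.70 and 1.77, the last 2 with FDR of 0.079 and 0.17 by edgeR).

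Jag1, the other Jagged ligand, was shared by both vascular classes. In endothelial-like cells it ranged from 37.1 to 78.7 CPM (57.3 ± 17.0, SD, n = 7) and in mural-like cells from 0 in T101 to 140 in P8 (55.5 ± 48.1, SD, n = 7), and the groups overlapped. The difference between them was not called (log2FC -0.16 in the filtered edgeR fit). Myeloid-like cells were low in every PDOX, at 5.01 ± 4.47 CPM (SD, n = 7). Jag1 was called higher than in myeloid-like cells in endothelial-like cells (log2FC 2.77, SE 0.46, FDR 2.5e-06 by edgeR; 7 of 7 PDOXs), in mural-like cells (log2FC 2.93, SE 0.49, FDR 1.7e-05; 6 of 7) and in astrocyte-like cells (log2FC 2.03, SE 0.52, FDR 0.0011; 5 of 6). The last of these calls was lost with cells of at least 500 genes (log2FC 1.56, FDR 0.030 by edgeR) and with own-marker cells (1.79, FDR 0.088). Astrocyte-like cells varied from 0 CPM in T192 to 97.3 CPM in T101 and were not told apart from endothelial-like cells.

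**Figure D1:**
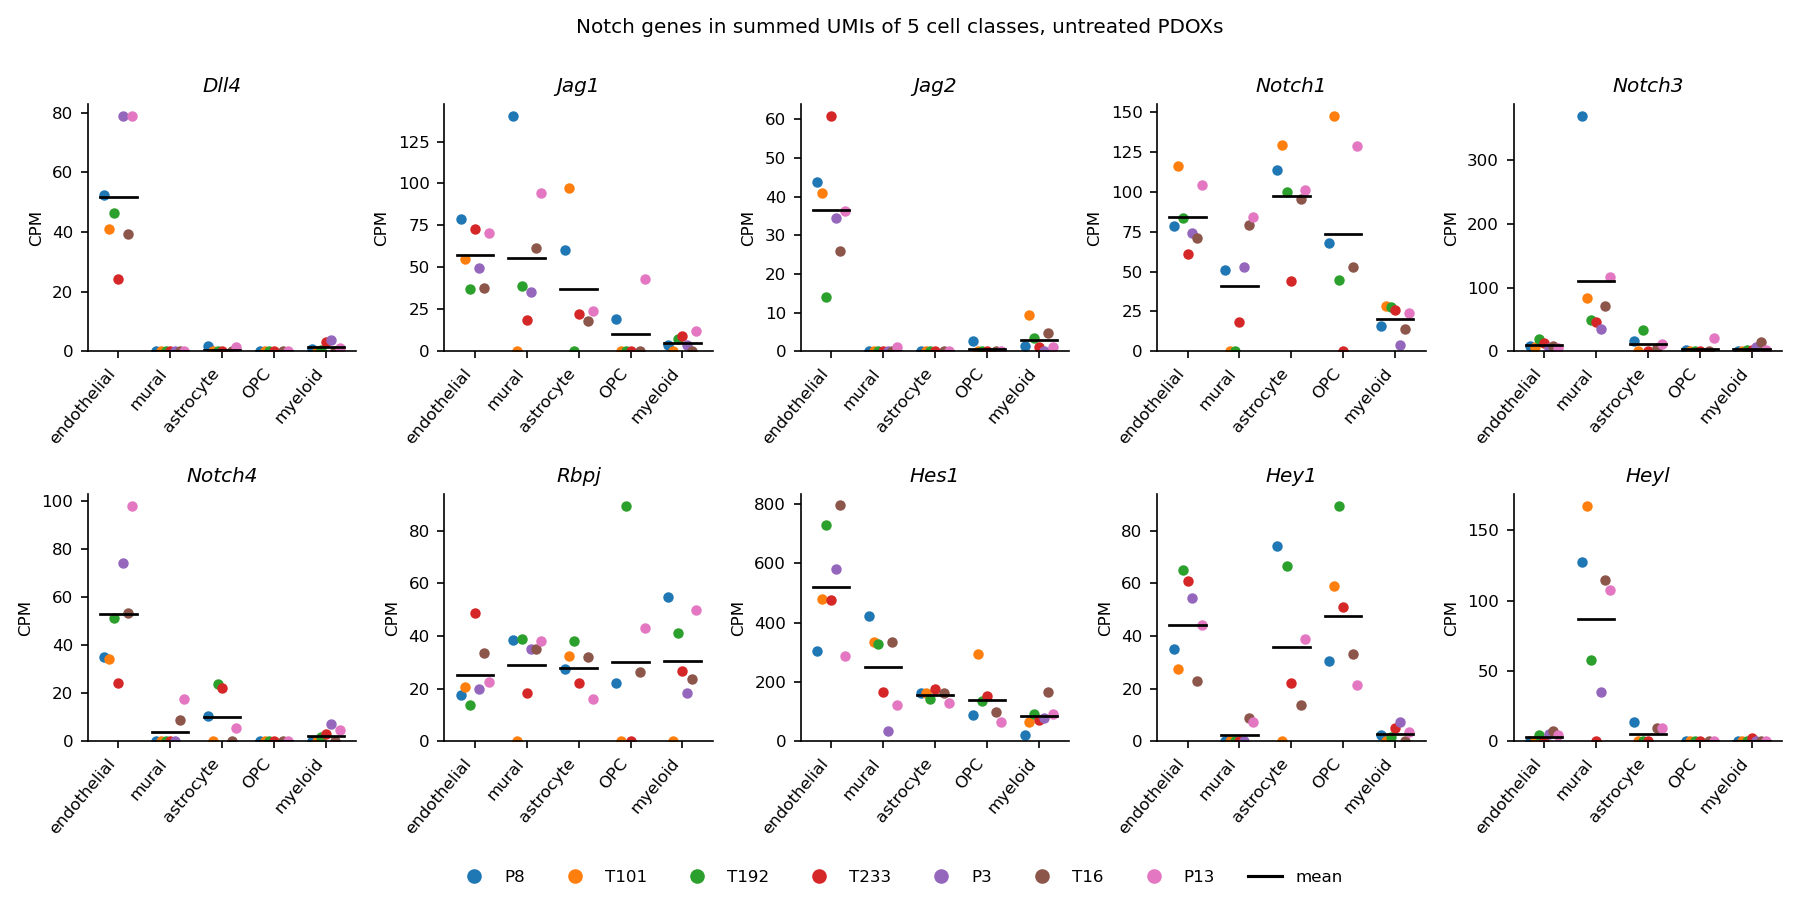
Level of each of the 10 Notch genes (CPM, linear axis from 0) in the summed UMIs of 5 cell classes. Each point is 1 untreated PDOX and each bar is the mean over PDOXs. Dll4, Jag2 and Notch4 stand high in endothelial-like sums, Notch3 and Heyl in mural-like sums, and Rbpj at a like level in all 5.

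Among the receptors, Notch4 followed Dll4 into endothelial-like cells. It measured 35, 34.2, 51.0, 24.4, 74.1, 53.2 and 97.9 CPM in P8, T101, T192, T233 and P3, and in T16 and P13 (52.8 ± 25.7, SD, n = 7), from 2 to 135 UMIs. P13 and P3 had the highest measured values, as for Dll4, and the lowest, in T233, rested on 2 UMIs. In mural-like cells 5 of the 7 PDOXs held no Notch4 UMI, T16 held 1 and P13 17 (17.4 CPM), and the sums of P8, T101 and T233 were too shallow to place Notch4 below the endothelial-like level. It was called against mural-like cells (log2FC 2.78, SE 0.52, FDR 9.1e-06 by edgeR), astrocyte-like cells (log2FC 2.33, SE 0.52, FDR 0.00013) and myeloid-like cells (log2FC 4.11, SE 0.48, FDR 4.4e-12). The measured value was higher in endothelial-like cells in 7 of 7, 6 of 6 and 7 of 7 PDOXs, although T233 held 2 UMIs against 1 in astrocyte-like cells and T101 had too shallow an astrocyte-like sum to place the gene. The call against astrocyte-like cells was lost without P13 (log2FC 1.57, FDR 0.042 by edgeR), with own-marker cells (2.55, FDR 0.038) and under DESeq2 (1.74, FDR 0.035). Without the 3 mural-like sums rich in myeloid markers, the difference from mural-like cells was 2.38 on the log2 scale and was still called.

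Notch3 was the member receptor with its highest level in mural-like cells. Its level there was 370 CPM in P8 (29 UMIs), 83.7 in T101 (1 UMI), 48.3 in T192, 46.0 in T233, 35.1 in P3 (2 UMIs), 70.4 in T16 and 117 in P13 (114 UMIs). The measured value of P8 was far above the other 6, of which T101 and P3 rest on 1 and 2 UMIs. The lowest values were those of the 3 sums rich in myeloid markers. Endothelial-like cells held 9.24 ± 4.74 CPM (SD, n = 7), and their highest value, 18.6 CPM in T192, lay below the lowest mural-like one. By edgeR the difference from endothelial-like cells was 3.56 log2 units in favor of mural-like cells (log2FC -3.56 for endothelial minus mural, SE 0.46, FDR 5.9e-10), that from astrocyte-like cells 2.84 (SE 0.46, FDR 3.1e-07) and that from myeloid-like cells 4.78 (SE 0.48, FDR 3.6e-14). Without the 3 sums, all 3 calls were kept, and endothelial minus mural was -4.13. Astrocyte-like cells (10.9 ± 12.6 CPM, SD, n = 6) were also called above OPC-like cells, which held 2 UMIs in all (log2FC -3.31 for OPC minus astrocyte, SE 0.94, FDR 0.0058 by edgeR), a call that was lost without P8 (-2.23), T101 (-3.29), T192 (-2.93), T233 (-3.27) or T16 (-3.17), under DESeq2 (-1.97), with no doublet step (-3.28), with no replicate block (-3.06), with cells of at least 500 genes (-2.41) and with own-marker cells (-3.46). They were also called above myeloid-like cells (log2FC 1.94), a call that was lost without T192 (1.45) or P13 (1.80), under DESeq2 (1.96, FDR 0.037) and with own-marker cells (3.29, FDR 0.13 by edgeR).

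Notch1 was the broadest receptor. The mean was 97.5 ± 28.9 CPM in astrocyte-like (n = 6), 84.2 ± 19.5 in endothelial-like (n = 7), 73.7 ± 55.3 in OPC-like (n = 6), 40.8 ± 35.2 in mural-like (n = 7) and 19.98 ± 9.10 in myeloid-like cells (SD, n = 7). Astrocyte-like, endothelial-like and OPC-like cells overlapped, and the differences tested among them were not called. Myeloid-like cells lay below endothelial-like cells in 7 of 7 PDOXs (log2FC 1.64, SE 0.31, FDR 2.6e-05 by edgeR) and below astrocyte-like cells in 6 of 6 (log2FC 2.20, SE 0.32, FDR 2.8e-07). Measured values did not overlap in either, as for 25.1% and 25.4% of the genes of the filtered fit. The astrocyte-like value of T233 rested on 2 UMIs. The first of these calls was lost with own-marker cells (log2FC 1.53, FDR 0.020). Mural-like cells fell below astrocyte-like cells (log2FC -1.23, SE 0.36, FDR 0.0049; measured values of 6 of 6 PDOXs). T101 held 0 Notch1 UMIs in a mural-like sum too shallow to place it, and T233 held 2 UMIs in either class. The call was lost without the 3 sums rich in myeloid markers (log2FC -0.86, FDR 0.064) and without T101 (-1.17), T192 (-1.06) or T233 (-1.15). It was lost as well without the filter (-1.12, FDR 0.011 by edgeR), with no doublet step (-0.94) and with cells of at least 500 genes (-0.69), and the value was 0.13 with own-marker cells.

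Rbpj, the factor through which all Notch receptors reach DNA, did not separate the classes. The mean was 25.2 CPM in endothelial-like, 29.1 in mural-like, 28.0 in astrocyte-like, 30.2 in OPC-like and 30.7 in myeloid-like cells. The groups overlapped in all 7 comparisons, and Rbpj was called in none of them. The log2 difference lowest in value was -0.90 (endothelial minus myeloid, SE 0.34, FDR 0.030 by edgeR), short of the limit of 1.

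Hes1, the target gene with the most UMIs, had its highest mean among the 5 classes in endothelial-like cells. It measured 306 CPM in P8, 479 in T101, 729 in T192, 475 in T233, 583 in P3, 796 in T16 and 287 in P13 (522 ± 195, SD, n = 7), with 35 to 524 UMIs. T16 and T192 were highest, P13 and P8 lowest. Mural-like cells followed at 421, 335, 329, 166, 35.1, 334 and 123 CPM in the same order, and only P8 was higher there than in its endothelial-like cells. Astrocyte-like cells held a narrow range, 128 to 177 CPM (156 ± 17.4, SD, n = 6), OPC-like cells 139 ± 82.8 CPM (SD, n = 6) and myeloid-like cells 84.0 ± 43.5 CPM (SD, n = 7). In the filtered edgeR fit Hes1 in endothelial-like cells was called above mural-like (log2FC 1.10, SE 0.31, FDR 0.0051), astrocyte-like (log2FC 1.35, SE 0.32, FDR 0.00069) and myeloid-like cells (log2FC 2.41, SE 0.30, FDR 1.8e-08). The first of these calls was lost without the 3 mural-like sums rich in myeloid markers (log2FC 0.86, FDR 0.065) and, with log2FC of 0.88 to 1.10, without any 1 of T192, T233, P3, T16 and P13. It was lost as well under DESeq2 (0.98), with RLE size factors (0.98), with cells of at least 500 genes (0.97) and with own-marker cells (0.47). The second was lost without T192 or T16 (log2FC 1.16 each, FDR 0.010 and 0.011 by edgeR). Mural-like and astrocyte-like cells were each called above myeloid-like cells (log2FC 1.32, SE 0.32, FDR 0.0029, and log2FC 1.06, SE 0.33, FDR 0.0068), but the former call was lost without P8 (log2FC 0.88) or T192 (1.24) and with own-marker cells (1.58), and the latter without any 1 of the PDOXs but T16 (log2FC 0.92 to 1.17), without the filter (0.75), with no replicate block (0.99), with cells of at least 500 genes (1.02) and with own-marker cells (0.72).

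Hey1 and Heyl, sister genes of the same repressor family, took opposite vascular classes. Hey1 was 35, 27.3, 65.0, 60.9, 54.3, 22.8 and 44.2 CPM in the endothelial-like cells of P8, T101, T192, T233 and P3, and of T16 and P13. In mural-like cells it was seen only in T16 (1 UMI) and P13 (7 UMIs), and the sums of P8, T101 and T16 were too shallow to place it below the endothelial-like level (log2FC 2.997, SE 0.55, FDR 5.5e-06 by edgeR). Heyl was 128 CPM in P8, 167 in T101 (2 UMIs), 58.0 in T192, 0 in T233, 35.1 in P3 (2 UMIs), 114 in T16 and 108 in P13 (105 UMIs) in mural-like cells. Endothelial-like cells held 3.07 ± 3.06 CPM of Heyl (SD, n = 7), below the mural-like value in 6 PDOXs and equal to it, at 0, in T233 (log2FC -4.16, SE 0.53, FDR 2.5e-10). Without the 3 sums rich in myeloid markers the differences were 2.57 for Hey1 and -4.39 for Heyl, and both calls were kept.

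Outside the vessel wall the 2 genes differed as well. Hey1 was found in astrocyte-like (35.9 ± 29.6 CPM, SD, n = 6) and OPC-like cells (47.4 ± 24.8 CPM, SD, n = 6) at levels that overlapped with the endothelial-like ones, and it exceeded mural-like cells in astrocyte-like cells (log2FC -3.29 for mural minus astrocyte, FDR 1.3e-06 by edgeR) and myeloid-like cells in endothelial-like (log2FC 3.51, FDR 4.2e-11) and astrocyte-like cells (log2FC 3.804, FDR 8.1e-12). Heyl was called higher in mural-like than in astrocyte-like (log2FC 3.12, FDR 4.9e-07) and myeloid-like cells (log2FC 6.04, FDR 4.3e-14; 138 against 3 UMIs). OPC-like cells held no Heyl UMI against 17 in astrocyte-like cells, at least 3.07-fold lower, a bound that cannot be given without P8 (log2FC -4.98, FDR 0.0027 by edgeR), a call that was lost without P8 (FDR 0.18) or T16 (FDR 0.014), under DESeq2 (-2.04), with no doublet step (-3.17), with cells of at least 500 genes (-2.67) and with own-marker cells (-2.37). Heyl was also called higher in astrocyte-like than in myeloid-like cells (log2FC 2.92), a call that was lost without P8 (2.34) or P13 (2.44), with no doublet step (1.79) and with own-marker cells (2.70).

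**Figure D2:**
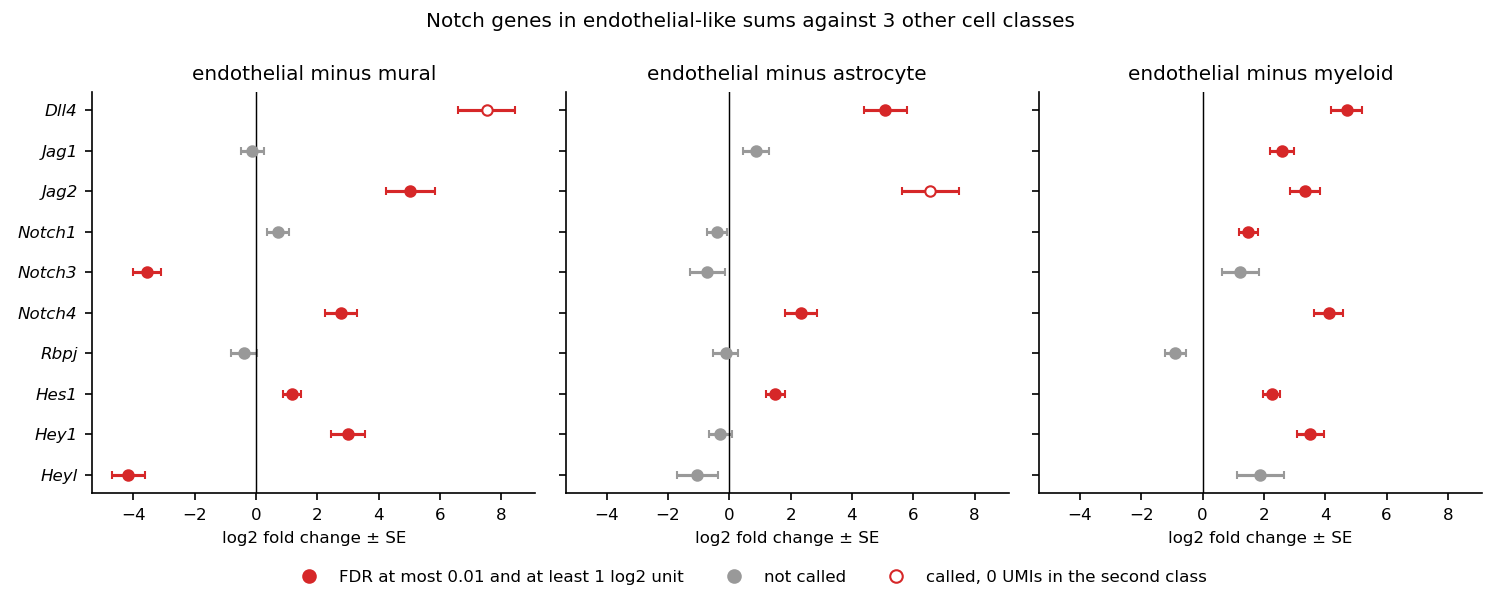
Log2 fold change ± SE of the 10 Notch genes in endothelial-like sums against mural-like, astrocyte-like and myeloid-like sums of the untreated PDOXs, from the edgeR fit without a filter on low counts. Red marks a called gene, gray one that was not called, and an open symbol a called gene with 0 UMIs in the second class, whose position depends on the prior count. Notch3 and Heyl lie left of 0 against mural-like cells, Dll4, Jag2, Notch4, Hes1 and Hey1 right of it.

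Over the 10 members the median log2FC was 0.95 for endothelial minus mural, where the median over all genes was 0.01, and 2.42 for endothelial minus myeloid, where it was -0.23. It was 0.37 for endothelial minus astrocyte (all genes -0.01), 0.92 for mural minus myeloid (-0.28) and 1.75 for astrocyte minus myeloid (-0.24). For mural minus astrocyte it was 0.29, or 0.13 with members at 0 UMIs set to their bound (all genes 0.01), and for OPC minus astrocyte -1.38, or -1.01 with the bounds (all genes -0.20).

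The shares of cells with a transcript gave the same picture at low depth. With each cell thinned to 500 UMIs, 2.91% of 1339 endothelial-like cells of the untreated PDOXs held a Dll4 UMI (95% exact binomial interval 2.08 to 3.96), 2.91% a Notch4 UMI, 1.49% a Jag2 UMI (0.915 to 2.30) and 18.7% a Hes1 UMI (16.6 to 20.9). Before thinning these shares were 6.32%, 7.15%, 4.18% and 30.3%. Myeloid-like cells, which served as the background, held Dll4 in 0 of 2005 thinned cells, a count that leaves room for at most 0.150% of cells with a UMI by the floor of 3 counts, which is no limit on cells that express the gene, and Jag2 and Notch4 in 0.0998% each. Of 461 thinned mural-like cells, 8.03% held Notch3 (5.71 to 10.9) and 4.99% Heyl (3.19 to 7.39), against 0.0499% and 0 in myeloid-like cells, and 18.9% and 15.5% before thinning. For Hes1, which the myeloid-like sums held at 20.5 to 166 CPM, no background share is given. Intervals and limits cover counting error only.

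Other genes shared these patterns. Over the 33 class-by-sample sums, the genes most like each member by Pearson correlation of log2(CPM + 50) were, for Dll4, Tmem252 (r = 0.98), Myct1 (0.97) and Slc35f2 (0.97). For Notch4 they were Dll4 (0.92), Myct1 (0.91) and Gpr4 (0.89), and for Jag2 Stap2 (0.96), Rasip1 (0.94) and Sigirr (0.94). Notch3 was most like the endothelin receptor Ednra (0.92), Pcdh18 (0.91) and Cd248 (0.90), and Heyl most like Ppp1r14a (0.96), Art3 (0.96) and Il34 (0.95). Hes1 varied most like Car4 (0.82), Slc22a8 (0.81) and Fzd6 (0.80). Weaker likeness was found for Hey1 (S100a16, 0.81), Jag1 (Rasal2, 0.79), Notch1 (Limch1, 0.78) and Rbpj (Ube2w, 0.68). The sums of a sample share a library, so that these values describe the pattern over classes and were not tested.

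The mural-like class was next looked at by cluster. It consisted of a cluster led by Rgs5, a marker of pericytes, and a cluster led by Myh11, the smooth muscle myosin. In the 6 PDOXs with at least 10 cells of both, Heyl in the Rgs5-led cluster was 142 CPM in P8 (10 UMIs), 265 in T101 (2), 361 in T192 (5), 150 in P3 (2), 153 in T16 (12) and 114 in P13 (99). In the Myh11-led cluster it was 0, 0, 11.2, 0, 28.5 and 55.3 CPM in the same order, from 0, 0, 1, 0, 1 and 6 UMIs. The Myh11-led sums of P8 and T101 were shallow, 3 UMIs standing for 379 and 683 CPM, so that the Heyl levels of these PDOXs could not be placed at that depth. P3 had 2 UMIs against 0. In T192, T16 and P13, where 3 UMIs stand for 27.7 to 85.4 CPM in the Myh11-led sums, Heyl was higher in the Rgs5-led cluster. Pooled over the 6 PDOXs, 130 against 8 UMIs gave a ratio of 4.47 (95% interval 2.20 to 10.6), or 3.43 to 15.2 with any 1 PDOX left out, the highest of these without P13. The Myh11-led cells of T192, T233 and P3 carried more myeloid than mural markers (28497, 34035 and 41992 against 4922, 2277 and 3214 CPM), and in the 4 PDOXs without these sums the Heyl ratio was 2.68 (1.26 to 6.80). Notch3 had 1 against 0 UMIs in T101, 2 against 3 in T192 and 2 against 0 in P3, with the Rgs5-led count of each under the floor of 3 UMIs, and was lower in the Rgs5-led cluster in P8, T16 and P13 (ratio 1.14, 0.762 to 1.74). Without these sums the ratio was 0.675 (0.445 to 1.06), and without P13 it was 3.04 (1.503 to 6.65). The clusters were built from the same cells, although without the genes of the Notch list, and no test was made between them.

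**Figure D3:**
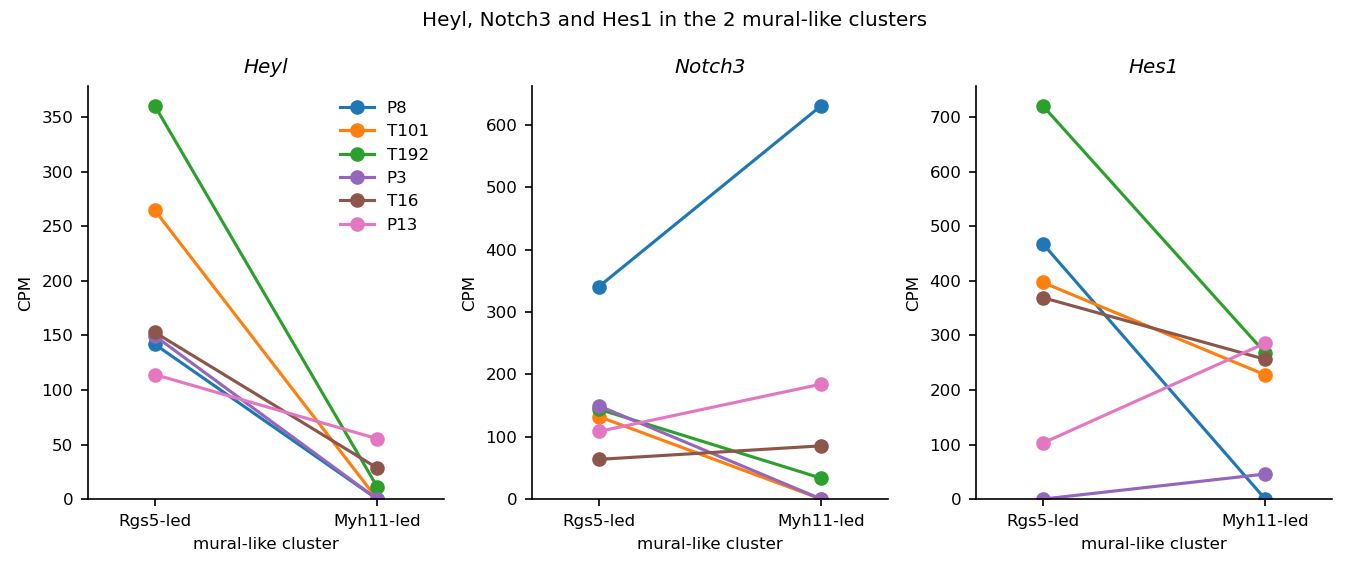
Level (CPM, linear axis from 0) of Heyl, Notch3 and Hes1 in the Rgs5-led and the Myh11-led mural-like cluster. Each line joins both values of 1 of the 6 untreated PDOXs with at least 10 cells of each. Heyl is at 0 UMIs in the Myh11-led sums of P8, T101 and P3, the first 2 of which are too shallow to place it, Notch3 rises in P8, T16 and P13 and rests on 1 or 2 UMIs in the Rgs5-led sums of the other 3, and Hes1 falls in P8, T192 and T16, rises in P13 and rests on 0 to 3 UMIs in T101 and P3.

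Hes1 in the mural-like clusters was higher in the Rgs5-led cells of P8, T192 and T16 and lower in those of P13. T101 (3 against 1 UMI) and P3 (0 against 2 UMIs) were too shallow to place it, and P13 held most of the UMIs of the Rgs5-led cluster. The pooled ratio of 0.673 (0.504 to 0.909) went the other way from P8, T192 and T16 and was 2.05 (1.36 to 3.14) without P13. A split of the thinned mural-like cells by UMIs of contractile markers gave Heyl 33.5 CPM in the contractile cells and 142 CPM in the others (ratio 0.236, 0.045 to 0.797; 3 against 20 UMIs) and a Notch3 ratio of 0.88. All 3 Heyl UMIs of the contractile cells came from P13.

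Endothelial-like cells were split in the same manner. Of their main clusters, the first was led by Cxcl12 and Gkn3, known from arterial endothelium, followed by Ly6c1, Abcb1a and Slco1a4, known from brain endothelium at large, while the other had Apln and Kdr, known from sprouting endothelium, among its leading genes and held no cell of Nu-NB. Over the 7 PDOXs pooled, Notch4 was 52.0 CPM in the first and 86.9 CPM in the second (ratio 0.598, 0.430 to 0.821), and Dll4 50.1 and 69.9 CPM (ratio 0.717, 0.508 to 0.999). Hey1 (ratio 1.70, 1.15 to 2.49) and Jag2 (ratio 1.59, 1.03 to 2.44) leaned to the first. In P8, T101 and T233, 3 UMIs in the second cluster stand for 112, 82.4 and 460 CPM, above the first-cluster level of each of these 4 genes, so that PDOXs are not counted by direction. The Hes1 ratio was 1.01 (0.905 to 1.13), or 0.777 without P13 and 1.25 without T16. These intervals cover counting error in the pooled UMIs, and the PDOXs did not all go the same way. Without P13 the intervals of Notch4 (0.386 to 1.07), Dll4 (0.409 to 1.18), Hey1 (0.909 to 2.94) and Jag2 (0.763 to 2.81) included 1.

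By fixed subset markers on thinned cells, 199 cells with an arterial marker UMI held 80.4 CPM of Jag2 against 21.1 CPM in the other 1140 (8 against 12 UMIs; ratio 3.82, 1.35 to 10.2). Jag1 and Hey1 were each 131 against 49.1 CPM (13 against 28 UMIs; ratio 2.66, 1.26 to 5.31). Without P13, which gave 5 of the 8 Jag2 and 6 of the 13 Jag1 UMIs, the ratios were 2.77 (0.448 to 12.97) and 2.59 (0.892 to 6.74). T192 gave 7 of the 13 Hey1 UMIs, and without it the Hey1 ratio was 1.49 (0.501 to 3.73), while it was 5.04 without P13. In 179 cells with a tip marker UMI, Dll4 was 100.6 CPM against 53.4 CPM in the other 1160 (9 against 31 UMIs; ratio 1.88, 0.788 to 4.05), an interval that includes 1. P3 gave 6 of the 9 Dll4 UMIs, and the ratio was 0.666 (0.130 to 2.14) without P3 and 3.52 (1.28 to 9.00) without P13. Leaving out 1 PDOX at a time from these subsets and clusters was chosen after seeing the data. No member had an interval without 1 in the venous split. The edgeR fit could test only Hes1 in the endothelial splits and called it in none (log2FC -0.50 for tip, -0.20 for arterial and -0.43 for venous), beside 2.85%, 4.82% and 0.941% of all genes called. Of the contractile mural split, where 4.19% of genes were called, no member passed the filter.

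The second comparison asked how the Notch genes of the TME differed from those of a brain without a tumor. Nu-NB was a single sample, so that the edgeR test used the spread of the PDOXs for it as well. Of the members that passed the filter (8 in endothelial-like, 5 in mural-like, 5 in astrocyte-like and 3 in myeloid-like cells), 0 were called by edgeR in any class. Over all genes, 0% were called in endothelial-like, mural-like and astrocyte-like cells and 0.0327% in myeloid-like cells, 849, 335, 586 and 1832 genes having an unadjusted p under 0.05, and DESeq2 called 2, 0, 1 and 200 genes in the 4 classes. Nu-NB and P8 were sorted by fluorescence and the other samples by magnetic depletion, so Nu-NB differed from 6 of the 7 PDOXs in the sort as well.

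Hes1 in myeloid-like cells is given first, as the member with the most UMIs there in the PDOXs. The class was not made of the same cells in all samples. A cluster led by P2ry12, a marker of microglia, held 630 of the 669 myeloid-like cells of Nu-NB but 85 of 554 in P8, 14 of 167 in T101, 56 of 1022 in T192, 24 of 526 in T233, 22 of 267 in P3, 129 of 261 in T16 and 268 of 419 in P13. The part of this make-up in the values of Hes1, Notch1 and Rbpj was not tested beyond that cluster. Nu-NB held 2 Hes1 UMIs among 383832 (5.21 CPM), and the PDOXs 20.5 CPM in P8, 66.4 in T101, 92.4 in T192, 72.9 in T233, 77.2 in P3, 166 in T16 and 92.7 in P13. All 7 lay above Nu-NB, as 13.7% of the genes did, and P8, the other sample sorted by fluorescence, was the lowest of them. The log2FC was 4.19 (SE 1.18) and was not called by edgeR (FDR 0.083). Over 13 alternatives the log2FC ranged from 3.99 to 6.51 and the FDR from 0.0038 to 0.140, and it was called in 1, without P8.

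RNA of other classes was measured beside it. If the myeloid-like sums held the markers of endothelial-like, mural-like, astrocyte-like and OPC-like cells only through stray RNA or mixed cells, that share would bring 10.1 CPM of Hes1 in Nu-NB and 11.4, 23.5, 27.8, 33.2, 31.2, 54.1 and 17.7 CPM in P8, T101, T192, T233 and P3, and in T16 and P13. The measured level was above this value in every PDOX and below it in Nu-NB. The value counts those 4 classes only (endothelial-like and mural-like in P3, and no OPC-like cells in Nu-NB). The unnamed cells, with 255 CPM of Hes1 in Nu-NB and 273 to 1499.8 CPM in the PDOXs, above the endothelial-like level in 6 of 7, and the cycling, ependymal and choroid plexus cells are not counted, and the part of their RNA in the difference was not tested. Unnamed cells numbered 115 in Nu-NB and 86 (P8) to 810 (T101) in the untreated PDOXs. Several of their clusters had Cnot2, Cand1 and Frs2 among their leading genes. Whether unnamed cells are mouse or tumor cells was not tested. In cells that held myeloid markers only, Nu-NB had 0 Hes1 UMIs in 322 cells, where 3 UMIs stand for 19.6 CPM. P8 was below that limit at 11.9 CPM (2 UMIs), and the other PDOXs had 60.3 to 128 CPM (log2FC 6.51, FDR 0.052 by edgeR, a value that depends on the prior count at 0 UMIs). In the P2ry12-led cluster, which was examined after seeing the data, Nu-NB had 1 UMI (2.80 CPM) and P8 had 0, where 3 UMIs stand for 52.1 CPM. T101, T192 and P3 had 1, 2 and 1 UMIs, fewer than the 3 UMIs taken as the floor. T233 had 492 CPM (7 UMIs), T16 132 (11 UMIs) and P13 100.9 (29 UMIs), and the fit gave a log2FC of 4.75 (FDR 0.047 by edgeR).

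**Figure D4:**
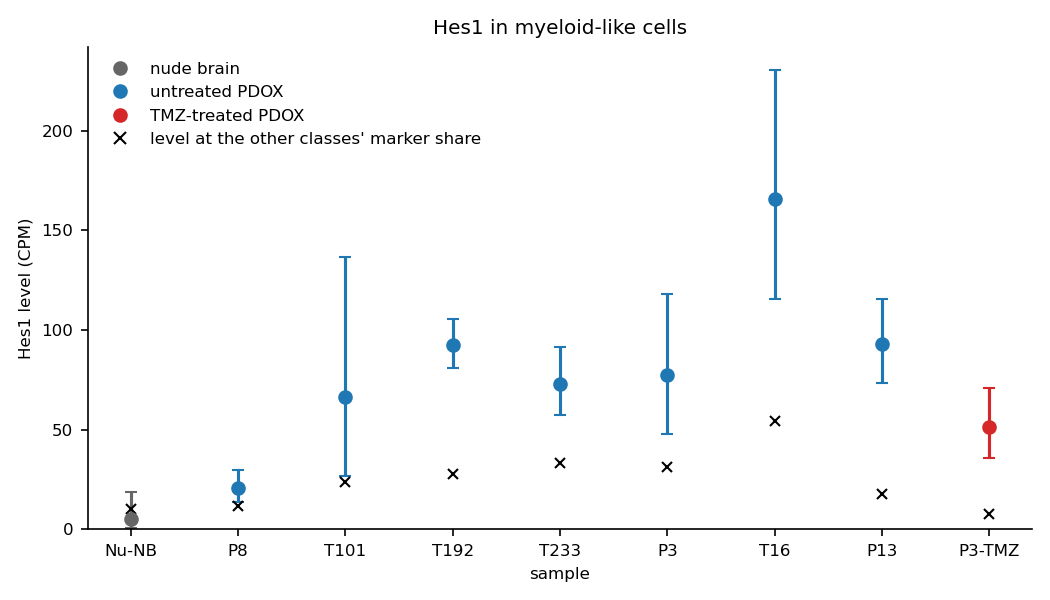
Hes1 level (CPM, linear axis from 0) in the myeloid-like sums of the 9 samples, with 95% Poisson intervals for counting error. Crosses give the level that the share of endothelial-like, mural-like, astrocyte-like and OPC-like markers in the sum would bring, other cells not being counted. The 7 untreated PDOXs, from 20.5 to 166 CPM, lie above Nu-NB at 5.21 CPM and above their own crosses.

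The rest of the members in myeloid-like cells were not called or were too low to read. Notch1 was 36.5 CPM in Nu-NB (14 UMIs) and 3.68 to 28.5 CPM in the PDOXs, and Rbpj 65.1 CPM (25 UMIs) and 0 to 54.8 CPM. Measured values of both were lower in 7 of 7, as were those of 27.1% of the genes. T101 held 3 Notch1 and 0 Rbpj UMIs, and P3 held 1 Notch1 UMI. Poisson intervals of Nu-NB overlapped those of some PDOXs, for Notch1 19.9 to 61.2 CPM against 21.8 to 35.6 in T192. For Rbpj they were 42.2 to 96.1 CPM against 43.1 to 68.7 in P8. The ligands and Notch3, Notch4, Hey1 and Heyl had 0 or 1 UMI in Nu-NB.

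In astrocyte-like cells, where Nu-NB had 855 cells, the measured values of 4 members were below Nu-NB in all 6 PDOXs, as were those of 17.4% of the genes. Notch1 was 155 CPM in Nu-NB (90 UMIs) and 44.1 to 130 CPM in the PDOXs. Hes1 was 225 CPM (131 UMIs) in Nu-NB and 128 to 177 CPM in the PDOXs (log2FC -0.59, not called). Rbpj was 46.4 CPM against 16.03 to 38.0 CPM, and Heyl 18.9 CPM (11 UMIs) against 0 to 13.8 CPM. T101 and T233, where 3 UMIs stand for 97.3 and 66.2 CPM, held 1 Rbpj UMI and no Heyl UMI each, so that neither gene could be placed against Nu-NB there. Jag1 and Hey1 lay on both sides of Nu-NB.

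In the vascular classes Nu-NB was too shallow to place most members. Its 34 endothelial-like cells held 16336 UMIs, so that 3 UMIs correspond to 184 CPM, more than any PDOX level but those of Hes1. Hes1 was 306 CPM there (5 UMIs). P13 lay below, P8 was level with it at 306 CPM, and the other PDOXs lay above. Dll4 and Notch4, at 0 UMIs in Nu-NB, were therefore not distinguishable from the PDOX levels at this depth, and Jag1, Jag2, Notch1, Rbpj and Hey1, which lay above all 7 PDOXs, had 1 to 4 UMIs. The 15 mural-like cells held 8153 UMIs (3 UMIs are 368 CPM). Hes1 measured 859 CPM (7 UMIs) and Heyl 368 CPM (3 UMIs), both above all 7 PDOXs, as did Notch1 at 1 UMI, and Notch3 had 0. All PDOXs lay above Nu-NB for 30.4% and below for 22.7% of the genes in endothelial-like cells, for 13.4% and 18.3% in mural-like cells and above for 8.98% in astrocyte-like cells.

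The third comparison set P3-TMZ beside untreated P3. It has 1 sample on either side and no test, and the ratios carry intervals for counting error only. In endothelial-like cells Hes1 was lower after TMZ, at 363 CPM (45 UMIs, 128 cells) against 583 CPM (118 UMIs, 210 cells), a ratio of 0.623 (0.432 to 0.885). The P3-TMZ value lay within the 287 to 796 CPM of the 7 untreated PDOXs, of which P3 is 1. Dll4 was 40.3 against 79.0 CPM (ratio 0.510, 0.146 to 1.46), Notch4 32.3 against 74.1 CPM (0.436, 0.105 to 1.37), Jag1 24.2 against 49.4 CPM (0.490) and Jag2 16.1 against 34.6 CPM (0.467). Notch1 was 88.8 against 74.1 CPM (1.20) and Rbpj 48.4 against 19.8 CPM (2.45). All these intervals include 1. Endothelial markers summed to 24262 CPM in P3-TMZ and 14854 in P3, and myeloid markers to 500 and 1660 CPM, so the sums differed in their make-up. So did the clusters, the cluster with Apln and Kdr among its leading genes making up 152 of the 210 cells in P3 and 57 of the 128 in P3-TMZ. In that cluster Hes1 was 313 CPM after TMZ (25 UMIs) and 629 CPM in P3 (100 UMIs), whereas in the Cxcl12-led cells it was 454 (20 UMIs) and 415 CPM (18 UMIs). With own-marker cells only, the Hes1 ratio was 0.532 with an interval that includes 1 (0.235 to 1.13). The interval of the ratio left out 1 for 7.32% of all genes with a UMI in these sums.

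**Figure D5:**
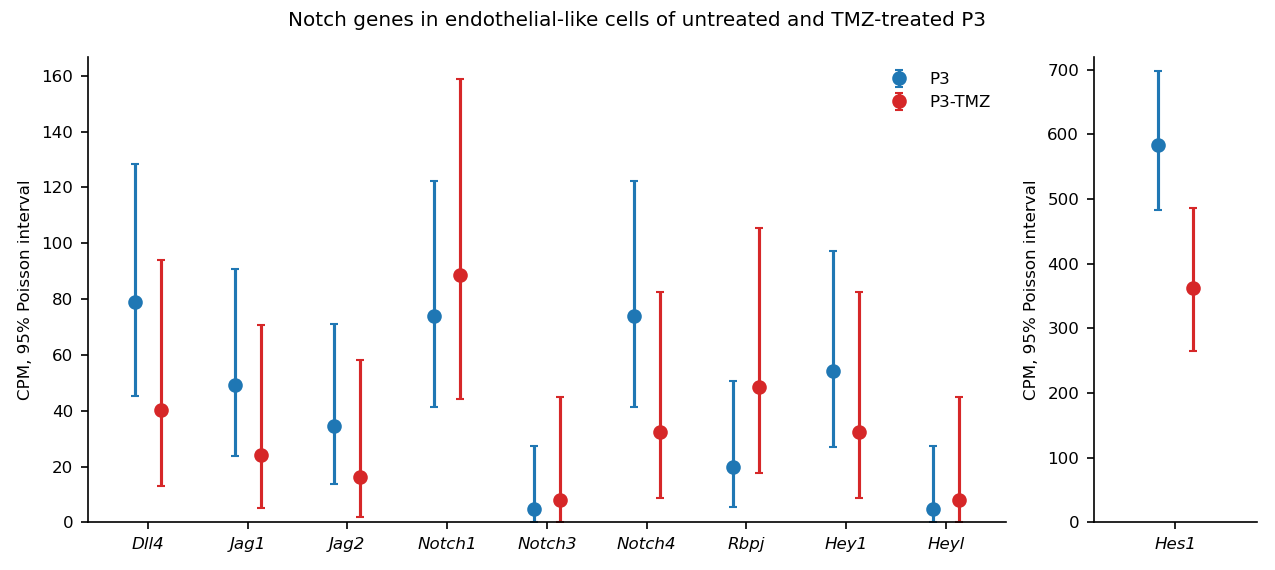
Level (CPM, linear axes from 0) of the 10 Notch genes in endothelial-like cells of untreated P3 and P3-TMZ, 1 sample each, with 95% Poisson intervals for counting error. Hes1 has an axis of its own. Its values are 583 and 363 CPM, and the intervals of both samples overlap for all 10 genes.

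In mural-like cells Hes1 went the other way, with 9 UMIs after TMZ (328 CPM) and 2 UMIs in P3 (35.1 CPM), a ratio of 9.34 (1.93 to 88.8), where 4.32% of all genes had an interval without 1. With no doublet step it was 2.46 (0.945 to 7.14). The P3 sum was one of the 3 rich in myeloid markers (33660 CPM, against 14107 CPM in P3-TMZ), and its 35.1 CPM was the lowest Hes1 level of the mural-like sums. Myeloid-like Hes1 was 51.0 CPM in P3-TMZ and 77.2 CPM in P3.

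A wider list of 50 Notch pathway genes beyond the members was followed in the same fits, of which 44 were listed in every table. All log2FC given for them come from the edgeR fit without a filter, in which 9 of these 44 were called between endothelial-like and mural-like cells, 2 higher and 7 lower in endothelial-like cells, a share of 20.5% beside 16.9% of all genes. Mfng, a glycosyltransferase that modifies Notch receptors (log2FC 2.87), and Adam10, the protease that cuts them (1.11), were higher. Dtx4 (-4.24), the Notch target Hey2 (-3.98) and the ubiquitin ligase Neurl1b (-3.24) were lower. Against astrocyte-like cells 10 of 44 were called (22.7%, beside 29% of all genes), 2 higher (Mfng 4.94, Adam10 1.54) and 8 lower, among them Dner (-6.62), an atypical Notch ligand, Hes5 (-6.05), the target gene best known from astrocytes and neural progenitors, and Notch2 (-3.70). Against myeloid-like cells 19 were called (43.2%, beside 27.5%), 3 higher (Nrarp, 3.25, a Notch target that limits the pathway, Tle1, 1.76, a corepressor, and Mfng, 1.42) and 16 lower (Dtx4 -4.87, Neurl1a -4.08 and Neurl3 -3.11 first).

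The glial classes were compared on the same list. Hes5 and Dner were higher in astrocyte-like than in myeloid-like cells (4.48 and 4.22), as was Nrarp (3.53), where 17 of 44 were called (38.6%, beside 32.6% of all genes), 7 higher and 10 lower, Mfng (-3.52), Neurl1a (-3.39) and Neurl3 (-3.31) being the lowest. Between mural-like and astrocyte-like cells 5 were called (11.4%, beside 20.5%), Neurl3 (2.34) and Maml3 (2.24), a coactivator, higher and Hes5 (-4.20), Dner (-4.11) and Lfng (-3.02) lower in mural-like cells. OPC-like cells held more of the ligand Dll1 (5.09) and less Lfng (-4.06), Notch2 (-3.61) and Hes5 (-1.61) than astrocyte-like cells, the 4 called there (9.09%, beside 11.5%). Between mural-like and myeloid-like cells 2 were called (4.55%, beside 10.9%), Hey2 (4.27) and Nrarp (3.41), both higher in mural-like cells. Without the 3 mural-like sums rich in myeloid markers, 13 of the 16 calls of this list that involve mural-like cells were kept, and both calls of Neurl3 were lost. The median over these genes was -0.28 for endothelial minus mural and -0.81 for endothelial minus myeloid, against 0.95 and 2.42 over the 10 members. Between PDOXs and Nu-NB, 0 of the list were called by edgeR in any class. After TMZ, 4 of the list had a ratio whose interval left out 1 in endothelial-like cells, beside 7.32% of all genes, a count from which nothing is read about the list. Adam10 was lower (ratio 0.430, 0.249 to 0.711), and Aph1a, a subunit of gamma-secretase (4.08, 1.18 to 17.8), and Snw1 (1.81, 1.04 to 3.17) were higher. Itch, a ubiquitin ligase, had 0 UMIs after TMZ and 19 in P3.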

How the data were processed

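Single cells of 9 mouse samples were analysed, 7 untreated PDOXs, 1 TMZ-treated PDOX and 1 nude mouse brain. The authors separated mouse cells by FACS (Nu-NB and P8) or magnetic depletion (the others), made Drop-seq libraries and deposited raw UMI counts per gene and cell barcode without normalization. The submitters' processing notes name bcl2fastq 2.0, STAR, GRCm38 and mm10. The tables of both FACS samples carry older gene symbols, so that sort and symbol release coincide. No column was left unmapped (0).

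All values were whole numbers. A cell needed at least 200 genes and no more than 30% mitochondrial UMIs, and the top 5% by scrublet score per sample were taken out as likely doublets. Clustering used scanpy 1.11.5 with leidenalg 0.10.2 (resolution 1, seed 1) on 2000 variable genes, 30 components and 20 neighbors, with no batch correction, and left out the genes of the Notch list. Clusters were named from fixed markers, hence the ending "-like", by a rule that was revised 2 times with cluster sizes in view and before Notch values were looked at. UMIs were summed per sample and class with at least 10 cells and tested by edgeR 4.0.16 (quasi-likelihood, TMM, Benjamini-Hochberg adjustment) on R 4.3.3, with DESeq2 1.42.0 as an alternative. The sample was a block between classes, since the classes of a sample come from the same mouse brain. On simulated data for endothelial minus mural, edgeR recovered 97.85% of 186 genes changed 4-fold (4081 tested, 3 false calls). It recovered 100% of 189 genes changed 8-fold (3991 tested, 5 false calls). Far fewer genes were tested there than the 12575 of the fit without a filter on low counts. Recovery of members tested only in that fit is therefore not shown. For shares of cells and subsets each cell was thinned to 500 UMIs, which left out 5245 shallower cells. Intervals of 95% are exact Poisson, binomial or conditional ones and cover counting error only. All 10 members were measured in every class, though not every level is printed in the text. Of the other pathway genes those called with the largest log2FC are named, up to 3 per direction, and likeness to a member was ranked over genes with at least 50 CPM in a class. The members, lists and tests were chosen with earlier results of these data known.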

Additional observations from a re-analysis of the deposited data

Results flagged for a closer look

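Notch3 in the mural-like sum of P8 stood apart from the other untreated PDOXs, at 370 CPM (29 UMIs) beside a nearest value of 117 CPM in P13. The values of T101 and P3 rest on 1 and 2 UMIs. The gap took up 0.756 of the whole range of the 7 PDOXs, past the limit of Dixon's test for 7 values. This was 1 of 29 groups examined, and chance alone marks about 1 in 20 groups. P8 is the only PDOX sorted by FACS, and its mural-like sum had the highest level of mural markers (29487 CPM). The part of either in the value was not tested.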

How the results depend on the processing

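The number of member calls over the 7 class comparisons was 11 and moved with the setting. It was 32 without the filter on low counts, where all 10 members were tested in place of 3, and 27 without the mural-like sums with more myeloid than mural markers, a fit chosen after seeing the data in which 8 members passed the filter. Leaving out 1 PDOX gave 6 to 18 calls, with 6 without P8, T16 or P13, 7 without T192 and 18 without T233, and 2 to 5 members passed the filter in these fits. DESeq2, RLE size factors, no doublet step and a fit with no replicate block gave 10 each, resolution 2 gave 11 and cells with at least 500 genes gave 13. Without the filter, no replicate block gave 31, and leaving out 1 PDOX gave 27 to 32. Shares of all genes are not set beside the counts of each setting. The counts therefore do not show whether members moved apart from other genes. Cells that held the markers of their own class only gave 7 with and 7 without the filter, where 1 mural-like (11 cells of T16), 2 OPC-like and 5 astrocyte-like sums were left, and reversed Jag1 (-2.68) and Notch3 (-0.013) for mural minus myeloid and Notch1 (0.13), Heyl (-1.54) and Notch3 (-3.30) for mural minus astrocyte. No other class contrast of a single member reversed: of 512 values over 34 contrasts, 435 kept direction and call, 72 lost the call and 5 reversed. Against Nu-NB, leaving out 1 PDOX gave 0 to 1 calls, the 1 being Hes1 in myeloid-like cells without P8. Hes1 in tip-marker cells reversed to 0.073 without thinning. Unthinned shares were 6.32% (Dll4), 4.18% (Jag2), 7.15% (Notch4) and 30.3% (Hes1) of endothelial-like and 18.9% (Notch3) and 15.5% (Heyl) of mural-like cells. After TMZ, 2 intervals left out 1, both of Hes1, in endothelial-like and mural-like cells. There were 0 in cells with own markers only and 3 with no doublet step, of Hes1 in endothelial-like and of Notch4 and Rbpj in myeloid-like cells. Depth limits all members in the shallow sums.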
